A study of Mus musculus with 12 samples.

Results

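The genes described here belong to the oxidative stress programme driven by the transcription factor NRF2. The list named 10 genes, and a probe set was a member where the platform annotation gave it 1 of these symbols and no other. That rule found 10 probe sets of 9 genes, out of 12422 non-control probe sets and 8251 genes named by a single symbol. Nqo1 had 2 probe sets and Sqstm1, Txnrd1, Gclc, Gclm, Hmox1, Gsr, Nfe2l2 and Txn1 had 1 each. The probe sets of Prdx1 also carried a second symbol, so Prdx1 was left out. The genes were chosen from pathway knowledge with earlier results of these arrays known, the culture comparison included. The cultured and fresh values of these genes are therefore a description, with no p-value for any of them and no support drawn from how many passed the threshold.

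The arrays measured RNA of dendritic cells (DCs) from the mouse spleen. CD11c-high cells had been sorted by the surface antigens CD4 and CD8 as CD4+, CD8+ or double-negative (DN, CD4- CD8-) cells. RNA came either from cells just isolated (fresh) or from cells kept for 2 h in culture medium at 37 °C (cultured), which gave 6 groups of 2 arrays. The arrays of a group carry experiment numbers 1 and 2, and paired values below are in that order. The labels give no strain, age or genotype of the mice and do not say whether the experiments used separate animals, so p-values measure the spread between these arrays only, and this spread may be technical.

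NRF2, the product of Nfe2l2, is a transcription factor that is held in the cytoplasm and degraded through the adaptor KEAP1. Oxidants and electrophiles modify KEAP1, and NRF2 then accumulates, pairs with a small MAF protein and binds antioxidant response elements near its targets. The targets make glutathione, reduce thioredoxin, break down haem and detoxify quinones, and p62, the product of Sqstm1, is both a target and a protein that can draw KEAP1 into autophagy. In DCs the redox state is known to bear on maturation and on antigen handling.

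The promoters are shown because the antioxidant response element lies in DNA near a gene, and the members are grouped here by a shared regulator. RefSeq windows (GRCm38.p6) were matched for 6 of the 9 genes, Sqstm1, Txnrd1 (3 starts), Gclm, Nqo1, Nfe2l2 and Txn1. Each sequence is the 250 bases before an annotated start, 5′ to 3′ in the sense of the gene, and capitals mark a match of TGACNNNGC, the core of the element, on either strand. The windows with a match and those of Sqstm1 and Txn1, on which later results turn, read as follows. Nfe2l2 is at chr2:75704664-75704913 (minus strand), Gclm at chr3:122245307-122245556 (plus), the Txnrd1 start with a match at chr10:82858956-82859205 (plus), Sqstm1 at chr11:50210821-50211070 (minus) and Txn1 at chr4:57956412-57956661 (minus).
Nfe2l2: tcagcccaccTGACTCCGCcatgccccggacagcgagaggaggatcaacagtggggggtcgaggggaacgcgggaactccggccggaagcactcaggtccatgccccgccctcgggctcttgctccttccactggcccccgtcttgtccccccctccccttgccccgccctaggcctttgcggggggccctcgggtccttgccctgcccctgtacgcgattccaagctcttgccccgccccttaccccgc
Gclm: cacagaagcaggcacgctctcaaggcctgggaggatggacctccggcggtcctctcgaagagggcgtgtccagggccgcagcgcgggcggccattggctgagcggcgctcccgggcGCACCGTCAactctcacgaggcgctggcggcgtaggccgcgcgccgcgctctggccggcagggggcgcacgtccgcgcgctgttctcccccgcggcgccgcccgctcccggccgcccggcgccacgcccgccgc
Txnrd1: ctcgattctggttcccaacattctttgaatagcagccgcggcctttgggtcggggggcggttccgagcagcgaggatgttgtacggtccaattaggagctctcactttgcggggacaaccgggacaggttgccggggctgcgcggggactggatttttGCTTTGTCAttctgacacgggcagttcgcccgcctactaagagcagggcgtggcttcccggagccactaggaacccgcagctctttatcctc
Sqstm1: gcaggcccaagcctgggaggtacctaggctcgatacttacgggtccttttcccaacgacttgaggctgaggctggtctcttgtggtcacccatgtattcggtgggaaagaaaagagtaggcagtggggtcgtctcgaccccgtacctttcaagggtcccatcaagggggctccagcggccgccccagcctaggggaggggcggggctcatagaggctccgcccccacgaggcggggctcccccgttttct
Txn1: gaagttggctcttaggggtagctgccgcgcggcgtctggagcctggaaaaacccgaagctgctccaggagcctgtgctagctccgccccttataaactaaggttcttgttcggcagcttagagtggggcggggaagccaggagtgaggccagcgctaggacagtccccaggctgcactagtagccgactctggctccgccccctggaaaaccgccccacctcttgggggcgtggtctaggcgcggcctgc

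A match of TGACNNNGC was in 3 of the 8 member windows and so in 3 of the 6 genes. Over all 32851 windows of this length, 10.161% held a match, and over all 27025 genes 11.515% did. The match in Nfe2l2 read TGACTCCGC on the sense strand, from 240 to 232 bases before the start. Those in Gclm and Txnrd1 lay on the antisense strand, as TGACGGTGC (134 to 126 bases before the start) and TGACAAAGC (92 to 84 bases before it). The AP-1 motif TGACTCA was in 0 of the 8 member windows and in 4.463% of all windows. These matches describe letters in a short window and not binding.

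The depth of an array study is its number of arrays, which was 2 per group. Every array had been scaled by the authors to the same trimmed mean. A probe set counted as above background over an intensity of 91.4. The 6 markers of DCs, Itgax, Flt3, Cd74, H2-Aa, H2-Ab1 and H2-Eb1, were each above that level on all 12 arrays. All 8 measured B cell markers were above it on at least 2 arrays, but Cd79a on only 2, Fcer2a on 3, Cd22 on 4 and Blnk on 5. Ighm, Ms4a1 and Pax5 were above it on all 12, and Ighm ran from 613.6 to 3965.2. Of 8 measured T cell markers, 6 were above it on none. The part of other cells in the values of the members was not tested. Cd4 was 617.3 and 612.8 in fresh CD4+ cells and 270.9 and 112.2 in cultured ones, while Cd8a was between 679.4 and 1675.2 on the 4 CD8+ arrays and at most 36.1 on the others. A label of fresh CD8+ experiment 1 calls the cells CD4 positive, but Cd8a was 1210.4 and Cd4 92.0 there, and the array was used as CD8+. The Gapdh control signal at the 3′ end over that at the 5′ end, a sign of RNA integrity, was 2.55 on fresh CD8+, 1.97 on cultured CD4+ and 1.34 on cultured DN cells, all of experiment 1, and 0.890 to 1.04 on the other 9 arrays. The same ratio of the actin control did not mark the same arrays. It was 0.908, 1.16 and 0.919 on those 3, and its highest value was 1.28, on cultured CD4+ experiment 2. In sorted bulk RNA, fewer cells of a type and less RNA per cell cannot be told apart.

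Of the 10 member probe sets, 8 passed the filter of lying above background on at least 2 of the 12 arrays, 1 for each gene but Nqo1. At the threshold applied to all 6159 probe sets tested (limma, adjusted p under 0.05), 8 of these 8 lay on the higher side in the mean culture difference over the 3 subsets, beside 17% of all. In CD4+ cells 6 did (background 7.53%), in CD8+ cells 4 (4.01%) and in DN cells 5 (4.21%). The CD4+ count was 3 without either fresh CD4+ array, and the DN count was 2 without fresh DN experiment 2 and 3 without experiment 1 of the fresh or cultured DN cells. The genes were chosen with this comparison known and passed the filter partly through their cultured arrays, so nothing is read from these counts. The median log2 difference of the 8 was 2.17, or 1.81 with values below background set to that level, and that of all tested probe sets was -0.02 or 0.02. All 6 cultured arrays lay above all 6 fresh ones for Sqstm1, Txnrd1 and Nfe2l2, which is 3 of 8 beside 7.68% of all probe sets.

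**Figure D1:**
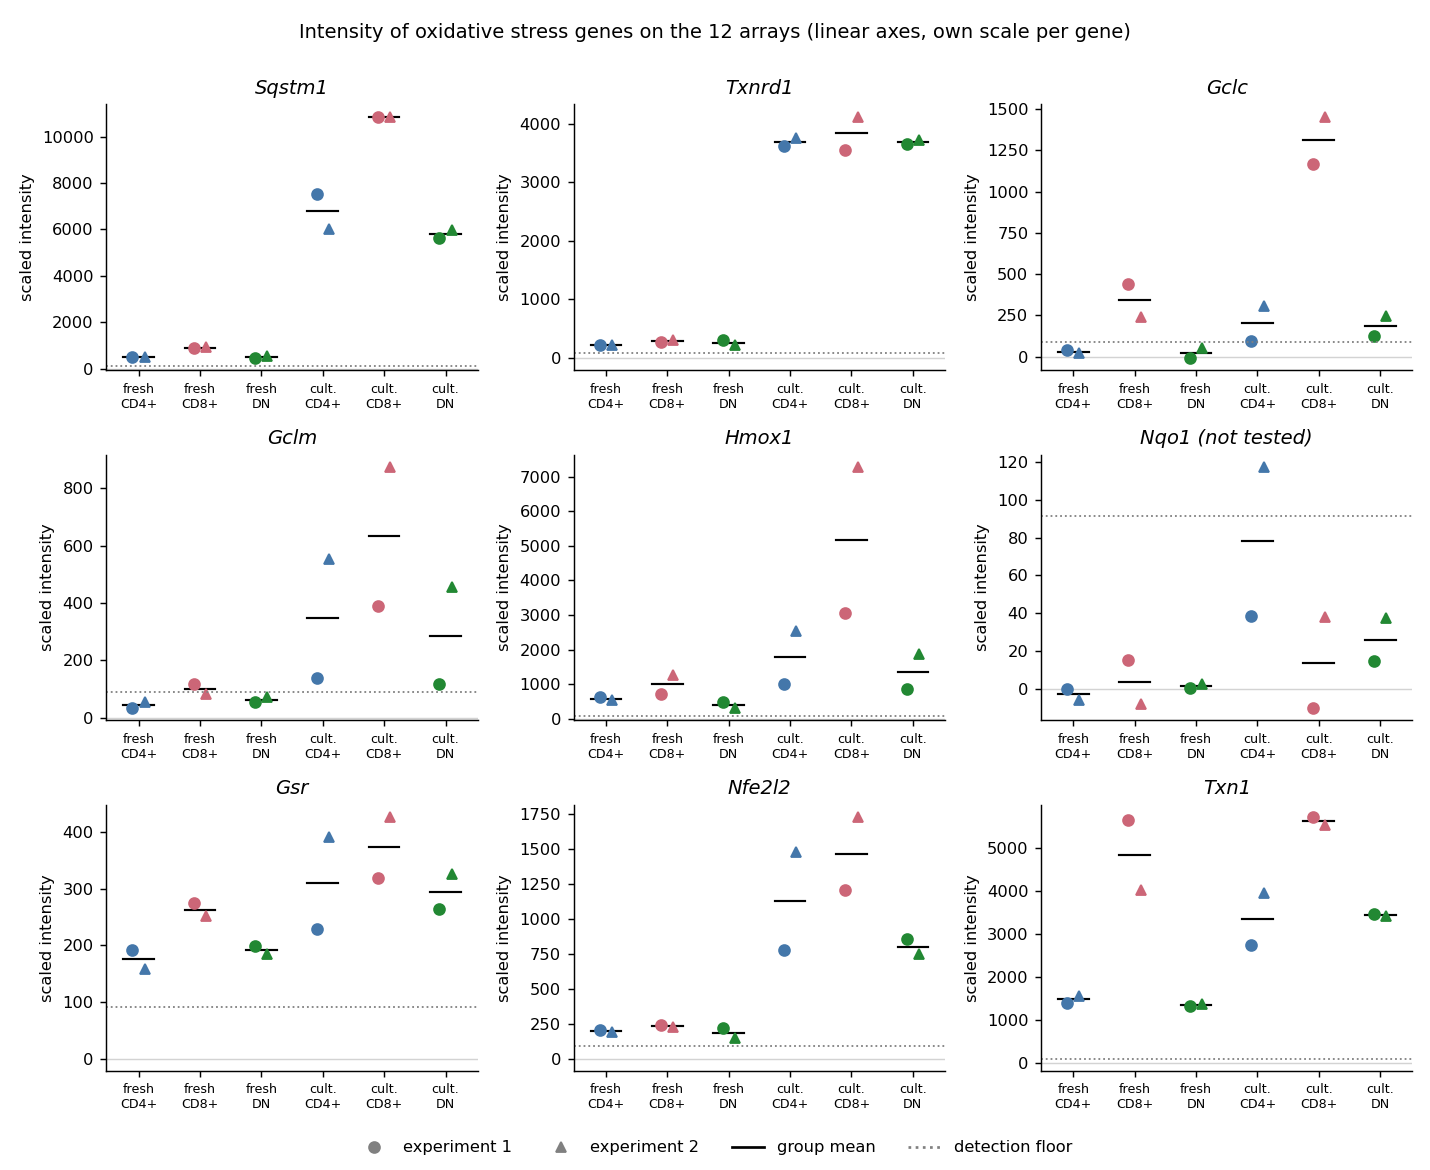
Deposited scaled intensity (linear axis, own scale per gene) of the 9 genes on the 12 arrays, with 1 of the 2 Nqo1 probe sets; circles are experiment 1, triangles experiment 2, bars group means and the dotted line the background level of 91.4. Sqstm1, Txnrd1 and Nfe2l2 separate all cultured from all fresh arrays, Gclc is highest in CD8+ cells in both states, and Nqo1 is above background on 1 array.

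Nfe2l2, the gene of the regulator itself, had intensities of 205.4 and 188.2 in fresh CD4+, 238.6 and 227 in fresh CD8+ and 216.8 and 146.9 in fresh DN cells. Cultured cells had 778 and 1479.4 (CD4+), 1205.2 and 1726.9 (CD8+) and 853.7 and 747.6 (DN). The lowest cultured value was above the highest fresh value. The mean log2 difference after culture was 2.40 ± 0.20 (SE), with 2.43 in CD4+, 2.62 in CD8+ and 2.14 in DN cells.

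Sqstm1 encodes p62, an autophagy receptor that also binds KEAP1. It had fresh intensities of 497.3 and 503.4 in CD4+, 867.1 and 927.3 in CD8+ and 453.2 and 541.6 in DN cells. After culture they were 7537.2 and 6033.3 (CD4+), 10860.7 and 10863.9 (CD8+) and 5619.7 and 5960.3 (DN). CD8+ cells were highest in each state, though the differences between subsets did not pass the test in either state. The mean culture difference was 3.63 ± 0.13 on the log2 scale, a 12.4-fold change, which ranked 27 of 6159 among increases.

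Txnrd1, the cytosolic reductase that returns thioredoxin to its reduced form, stood at 218.5 and 220 in fresh CD4+, 275.2 and 312.6 in fresh CD8+ and 303.5 and 218.3 in fresh DN cells. Cultured values were 3620.6 and 3754.7 (CD4+), 3548 and 4124.7 (CD8+) and 3662.7 and 3719.8 (DN). All subsets reached nearly the same cultured level, and their ranges overlapped. The mean difference of 3.86 ± 0.14 on the log2 scale (14.5-fold, rank 22) was the largest of the 8, and it was 4.06, 3.70 and 3.83 in CD4+, CD8+ and DN cells.

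Txn1 encodes thioredoxin, the substrate of that reductase and a general disulphide reductant. Its fresh intensities were 1397.5 and 1556.8 in CD4+ and 1319.8 and 1357 in DN cells, but 5661.3 and 4032.5 in CD8+ cells. Cultured values were 2739.2 and 3951.5 (CD4+), 3461.2 and 3420.3 (DN) and 5717 and 5546.4 (CD8+). In CD4+ and DN cells every cultured array was above every fresh one, with log2 differences of 1.16 ± 0.26 and 1.36 ± 0.26. In CD8+ cells the fresh and cultured ranges overlapped and the difference was 0.24 ± 0.26.

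Glutathione is made from its precursors by glutamate-cysteine ligase, whose catalytic subunit is encoded by Gclc and whose modifier subunit by Gclm. Gclc was below background in fresh CD4+ (39.2 and 21.2) and fresh DN cells (-7.9 and 55.7), and at 442.2 and 240 in fresh CD8+ cells. Cultured values were 94.9 and 309.3 (CD4+), 127.1 and 245 (DN) and 1168.8 and 1454.9 (CD8+). Every cultured array was above the common background level. The noise of an array, the root mean square of its values below 0, was 107.9 on cultured CD4+ experiment 1. On cultured DN experiment 1 it was 82.5. Gclc was below 2 times that noise on both of these arrays, so its detection there is uncertain. Against the background level, the culture difference of Gclc was at least 1.82-fold in CD4+ and at least 1.86-fold in DN cells, and in CD8+ cells, measured on both sides, it was 1.99 ± 0.66 on the log2 scale. Experiment 1 alone gave 1.04-fold over the background level in CD4+ and 1.39-fold in DN cells.

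Gclm was below background in fresh CD4+ (33.1 and 55.9) and DN cells (53.8 and 72.9) and straddled it in fresh CD8+ cells (117.6 and 84.2). After culture it was at 139.5 and 554.7 (CD4+), 117.3 and 454.9 (DN) and 391.1 and 875.1 (CD8+). The difference was at least 2.91-fold in CD4+ and at least 2.43-fold in DN cells, and 2.48 ± 0.72 on the log2 scale in CD8+ cells. These bounds rested on experiment 2, since against the background level experiment 1 alone gave 1.53-fold in CD4+ and 1.28-fold in DN cells. The cultured values of experiment 1 in these subsets, 139.5 and 117.3, were also below 2 times the noise of their own arrays. Gsr encodes the reductase that regenerates glutathione from its disulphide, and its mean culture difference was the smallest of the 8. It was between 158.6 and 274.7 on the fresh arrays (median 195.5) and between 229.2 and 426.5 on the cultured ones (median 322.95), so the states overlapped, and the difference was 0.62 ± 0.19. It no longer passed the threshold without any 1 of 6 arrays, namely both fresh DN arrays and experiment 2 of the fresh CD4+, fresh CD8+, cultured CD8+ and cultured DN cells.

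Hmox1 encodes haem oxygenase, which opens the haem ring and releases iron. Its fresh intensities were 633.2 and 552.3 (CD4+), 728.9 and 1283.1 (CD8+) and 490.5 and 310.9 (DN). Cultured ones were 1011.6 and 2555.3 (CD4+), 3053.4 and 7278.6 (CD8+) and 877.6 and 1869.5 (DN). Each subset's cultured arrays were above its own fresh arrays, while experiment 1 of the cultured CD4+ and DN cells lay below fresh CD8+ experiment 2. The log2 differences were 1.44, 2.28 and 1.71 in CD4+, CD8+ and DN cells (SE 0.55 each).

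Haem oxygenase is also abundant in red pulp macrophages of the spleen. Of 13 measured macrophage markers other than Hmox1, 9 were above background on at least 2 arrays, and Marco, Mertk, Mrc1 and Siglec1 were above it on none. Their summed intensity was 2681.8 to 3527.8 in fresh and 2295.2 to 2850.6 in cultured CD8+ cells, where Hmox1 was highest. It was 4658 to 4944.8 in fresh and 2038.9 to 3537.6 in cultured CD4+ cells, and 2363.7 to 2979.5 and 1833.8 to 2088.7 in DN cells. After culture the sum was thus lower in CD4+ and DN cells, while in CD8+ cells the ranges overlapped. Within each of the 6 groups, the array with the higher sum also had the higher Hmox1 value. The share of all probe sets that did so was not counted, so nothing is read from it. Spic, which is part of the sum and encodes a haem-responsive factor of those macrophages, went the other way from it. It was above background on 1 of the 6 fresh arrays (120.8 in CD8+ cells) and between 252.3 and 1247.1 after culture (limma, adjusted p = 2.09e-05). No size is given since most fresh values were not measured. Spic passed the filter only through the cultured cells, so this p-value is a description only. The part of macrophages in the Hmox1 values was not tested.

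Nqo1, a quinone reductase used as a standard readout of NRF2, was barely measured. Its first probe set lay between -1.4 and 3.7 on fresh and between 3.1 and 42.6 on cultured arrays, below background throughout. The second lay between -8 and 15.4 on fresh arrays and between -10.2 and 117.3 on cultured ones. A single array, cultured CD4+ of experiment 2, was above background, at 117.3. Neither probe set was tested, and no fold is given.

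**Figure D2:**
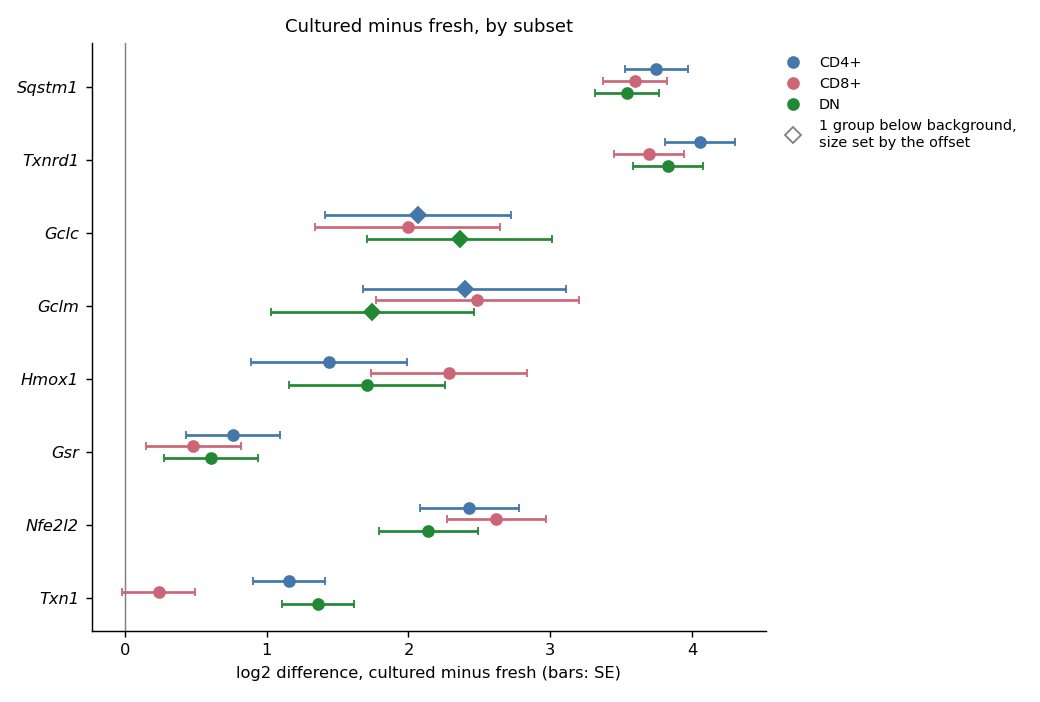
Log2 difference, cultured minus fresh, of the 8 tested genes in CD4+ (blue), CD8+ (red) and DN cells (green); points are limma estimates, bars their SE, and diamonds (Gclc and Gclm in CD4+ and DN cells) have fresh values below background, where the size depends on the offset. Sqstm1 and Txnrd1 lie between 3.54 and 4.06 in each subset, Gsr between 0.48 and 0.76, and Txn1 in CD8+ cells is nearest 0 at 0.24.

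Whether the subsets differed in the size of the culture change was tested by interaction contrasts. No member was called, and 0% of all probe sets were called in each of the 3 contrasts, while 525 (CD8+ minus CD4+), 250 (CD8+ minus DN) and 127 (DN minus CD4+) had an unadjusted p under 0.05. The largest differences among members against their errors were those of Txn1. Its change in CD8+ cells was smaller than in CD4+ cells by -0.92 ± 0.36 (limma, adjusted p = 0.572) and than in DN cells by -1.12 ± 0.36 (adjusted p = 0.998). These contrasts use the same fresh CD8+ arrays in which Txn1 was high, so they are not separate from the fresh comparison. For Sqstm1 the CD8+ minus CD4+ difference in change was -0.15 ± 0.32 (adjusted p = 0.890) and for Hmox1 0.84 ± 0.78 (adjusted p = 0.759).

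Between fresh subsets, Txn1 and Gclc were the members called, both higher in CD8+ cells. Txn1 was higher than in CD4+ cells by 1.70 ± 0.26 on the log2 scale (limma, adjusted p = 0.00562) and than in DN cells by 1.84 ± 0.26 (adjusted p = 0.00603). Gclc was at least 3.39-fold higher than in either. Its calls (limma, adjusted p = 0.0460 against CD4+ and 0.0377 against DN cells) used its measured values below background. With these set to the background level, adjusted p was 0.117 and 0.137, so the bound itself did not pass the test. Of all probe sets, 1.98% were called between CD8+ and CD4+ cells and 1.43% between CD8+ and DN cells. Both comparisons use the same 2 CD8+ arrays. Each of the 8 members had a log2 difference above 0 in both, with medians of 0.77 and 0.71 (0.65 and 0.66 with values below background set to that level) beside 0.00 and -0.01 for all probe sets.

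The Gclc calls were close to the threshold. Of 23 other settings, 14 lost the call against CD4+ cells (adjusted p 0.0165 to 0.320) and 13 lost that against DN cells (0.0132 to 0.321). Leaving out either fresh CD4+, fresh CD8+ or cultured CD8+ array ended both, either fresh DN array that against DN cells, and either cultured DN array that against CD4+ cells. The Txn1 calls were lost only without an array of the comparison group, at adjusted p = 0.0857 and 0.0596 without fresh CD4+ experiment 1 or 2, and 0.0759 and 0.0896 without fresh DN experiment 1 or 2, and against CD4+ cells also with only those 2 groups fitted (0.0775). Without the 3 arrays of high Gapdh ratio, 1 of which is a fresh CD8+ array, Txn1 was 1.45 higher than in CD4+ and 1.59 higher than in DN cells. Gclc was then 2.52 and 2.79 higher, sizes that depend on the offset, and its call against CD4+ cells was among those lost. That setting leaves 1 fresh CD8+ array.

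Sqstm1 was higher in fresh CD8+ cells by 0.84 ± 0.23 against CD4+ and 0.85 ± 0.23 against DN cells, which did not pass the test (limma, adjusted p = 0.0984 and 0.123). Hmox1 differed by 0.71 ± 0.55 and 1.30 ± 0.55 (adjusted p = 0.824 and 0.478). Txnrd1, Gsr and Nfe2l2 had differences between 0.19 and 0.58, with adjusted p from 0.632 to 0.987. Gclm, at or near background in every fresh group, had adjusted p = 0.800 and 0.980. Between DN and CD4+ cells no member was called, and 0% of all probe sets were in either state. Of all probe sets, 81 had an unadjusted p under 0.05 in that fresh comparison and 235 in the cultured one.

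Among cultured cells, Gclc was higher in CD8+ than in CD4+ cells by 2.89 ± 0.66 (limma, adjusted p = 0.0467), the only member called, beside 2.29% of all probe sets. Of 23 other settings 16 lost this call (adjusted p 0.00992 to 0.272), among them those without any 1 of 9 arrays, which were all CD8+ and fresh CD4+ arrays, cultured CD4+ experiment 1 and both cultured DN arrays. Against DN cells Gclc differed by 2.86 ± 0.66 (adjusted p = 0.0695, and 0.0363 with the experiment number as a replicate block), where 1.3% of all probe sets were called. Detection of Gclc was uncertain on experiment 1 of the cultured CD4+ and DN cells, and both sizes depended on these arrays. The difference from CD4+ cells was 2.07 without cultured CD4+ experiment 1 and 3.70 without experiment 2. That from DN cells was 2.40 without cultured DN experiment 1 and 3.31 without experiment 2. Sqstm1 differed by 0.69 ± 0.23 and 0.91 ± 0.23 (adjusted p = 0.170 and 0.0925) and Hmox1 by 1.55 ± 0.55 and 1.88 ± 0.55 (adjusted p = 0.206 and 0.169). Txn1 differed by 0.78 ± 0.26 and 0.71 ± 0.26 (adjusted p = 0.173 and 0.314). Txnrd1, at 0.05 ± 0.25 in both, had the smallest differences.

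**Figure D3:**
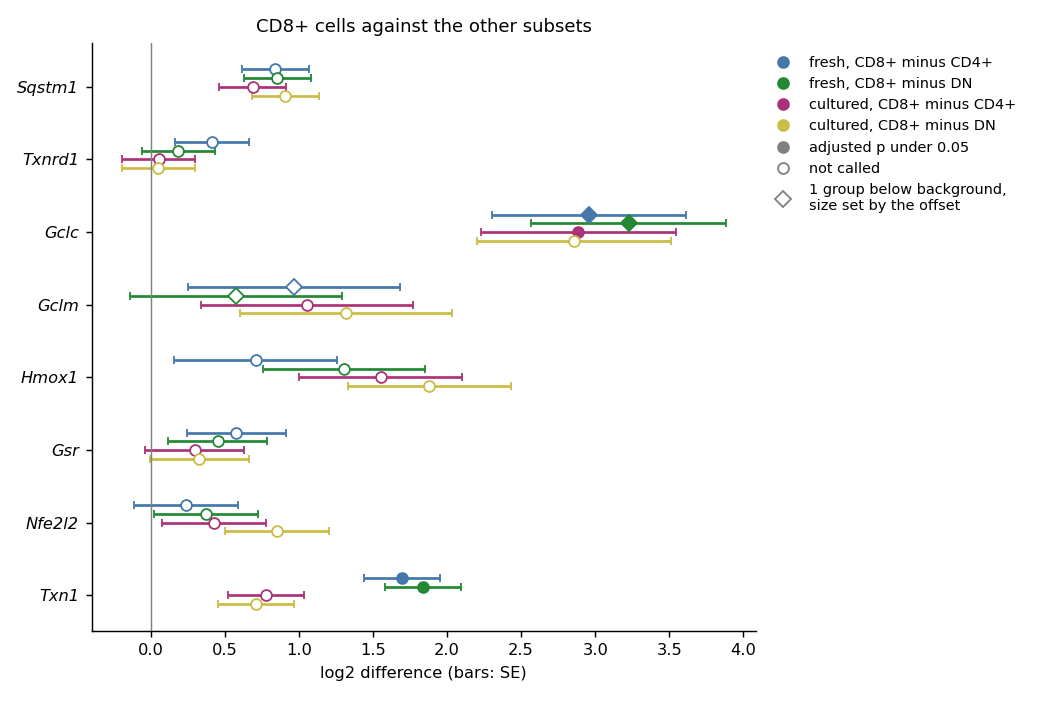
Log2 difference of CD8+ cells from CD4+ and from DN cells, fresh and cultured, for the 8 tested genes; points are limma estimates, bars their SE, filled points have an adjusted p under 0.05, and diamonds (Gclc and Gclm in the fresh state) have CD4+ or DN values below background, where the size depends on the offset. Filled points are those of Txn1 and Gclc in the fresh state and of Gclc against CD4+ cells after culture, at 2.89, and the other 6 genes have none.

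The arrays of experiment 2 gave larger culture differences than those of experiment 1 for most members. On cultured arrays, Txnrd1, Gclc, Gclm, Hmox1 and Gsr were higher in experiment 2 in all 3 subsets, 5 of the 8 genes beside 23.2% of all probe sets. On fresh arrays Sqstm1 was, 1 of 8 beside 13.6% of all. Within experiment 1 the mean log2 difference over subsets was 1.19 for Hmox1 and 0.29 for Gsr, and within experiment 2 it was 2.43 and 0.96. Gclm and Gclc had fresh values below background. With these set to the background level, Gclm had at least 0.90 in experiment 1 and at least 2.73 in experiment 2, and Gclc at least 0.64 and at least 1.93. Sqstm1 (3.73 and 3.53) and Txnrd1 (3.78 and 3.97) were alike in both, and Nfe2l2 (2.08 and 2.75) and Txn1 (0.79 and 1.05) lay between.

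Each of the 8 genes was higher after culture in all 3 subsets within each experiment, as were 18.3% of all probe sets, and with genes chosen on culture results nothing is read from this. The difference between the experiments was not tested. Hba-a1, a haemoglobin gene of red cells, was higher in experiment 1 in all 6 groups, at 697.4 to 2468.8 against 163.9 to 335 in experiment 2. The other 3 measured red cell genes were above background on no array. Genes not of red cells were also higher in experiment 1 in all 6 groups, among them Pax5, Lat, Gstm3 and Txnrd3. The share of all probe sets with this pattern was not counted. The 3 arrays of high Gapdh ratio were also of experiment 1, and without them the mean culture differences were 2.08 for Hmox1 and 0.81 for Gsr. The part of red cells in these values was not tested.

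**Figure D4:**
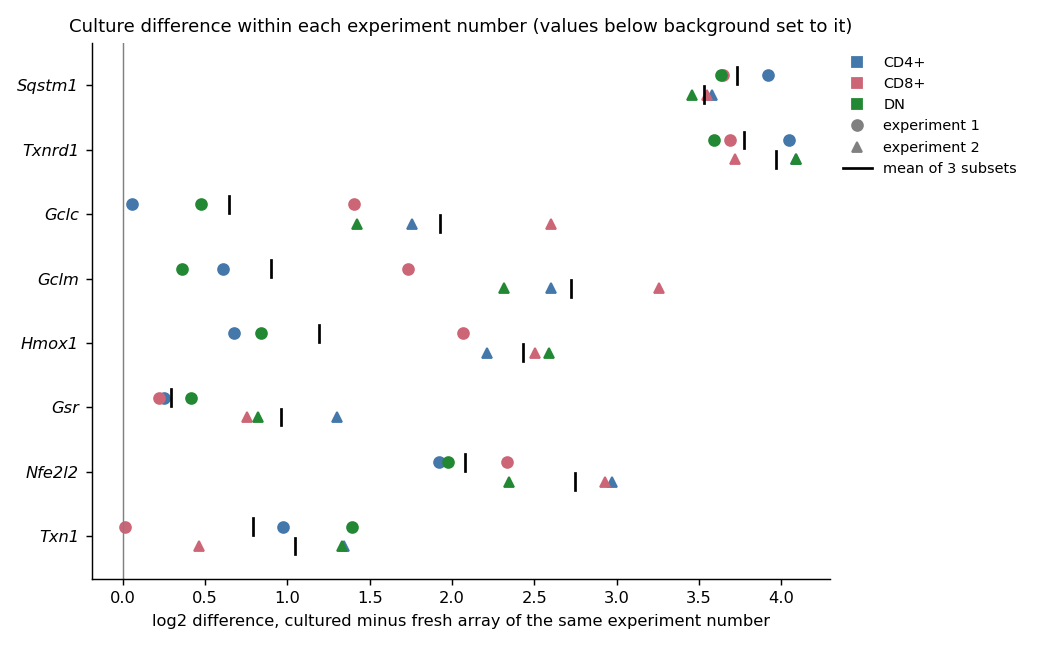
Log2 difference between the cultured and the fresh array of the same experiment number for each subset (blue CD4+, red CD8+, green DN); circles are experiment 1, triangles experiment 2 and black bars the mean over subsets, with values below background set to that level. Gclm, Hmox1, Gclc and Gsr have larger means in experiment 2, and Sqstm1 and Txnrd1 have means between 3.53 and 3.97 in both.

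The pathway around these genes was described with 8 further lists, written from general knowledge with earlier results known, and no test compares the lists. Where a gene was below background on both arrays of a group, its change is given as a bound or without a size. The lists held 75 tested genes. In the mean culture comparison 20 rose (26.7%) and 14 fell (18.7%), with a median of 0.09. Among all 4735 tested genes 16.1% rose and 24.3% fell, with a median of -0.06, and among all probe sets 17% and 22.3% did.

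Of 12 listed regulators of NRF2, 10 were measured and 5 tested, of which 3 rose and 0 fell, with a median of 1.27 (1.13 with values below background set to that level). The small MAF partners Mafg and Mafk were among them. Mafg was above background on 1 of 6 fresh and on all 6 cultured arrays, at least 3.27-fold higher in CD4+ and at least 3.90-fold higher in DN cells (limma, adjusted p = 0.000104 in the mean). Mafg passed the filter only through the cultured cells, so this p-value is a description only. Mafk rose by 1.27 ± 0.40 (adjusted p = 0.0291). Bach1, which encodes a haem-binding repressor that occupies the same DNA elements, rose by 1.77 ± 0.23 (adjusted p = 0.000198), from 65 to 310.4 on fresh arrays to 419.1 to 819.4 on cultured ones.

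Among other NRF2 targets, 5 of 14 rose and 2 fell (median 0.46, or 0.32 at that floor). Srxn1, which encodes sulfiredoxin, the enzyme that repairs over-oxidised peroxiredoxins, was below background on every fresh array, between -5.6 and 16.6. Cultured values were 494.8 and 1594.3 (CD4+), 494.4 and 1515.2 (CD8+) and 541 and 983 (DN). It was thus at least 8.53-fold higher over the 3 subsets (limma, adjusted p = 3.73e-06). Srxn1 passed the filter only through the cultured cells, so this p-value is a description only. Pgd of the pentose phosphate pathway, which supplies NADPH, rose by 1.94 ± 0.45 (adjusted p = 0.00679). Gstm2, a glutathione transferase gene, rose as well (adjusted p = 0.0140). Slc7a11, the cystine transporter gene, had adjusted p = 0.0253 but was above background on 0 fresh and 2 cultured arrays. These were CD4+ and CD8+ cells of experiment 2, at 214.9 and 91.4, so Slc7a11 passed the filter only through the cultured cells. Aldh1a1, a retinal dehydrogenase gene, had adjusted p = 0.0275 but was above background on 0 fresh and 3 cultured arrays, none of them CD8+, so it passed the filter only through the cultured cells. Ugdh, which makes UDP-glucuronate, fell by 0.87 ± 0.16 (limma, adjusted p = 0.00197) and Gstp1, another transferase gene, fell by 0.54 ± 0.18 (adjusted p = 0.0387).

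The thioredoxin system outside the members had 2 of 10 higher and 2 lower (median -0.35). Srxn1, counted again, and Txnl1, a thioredoxin-like gene (0.80 ± 0.26, limma, adjusted p = 0.0320), rose. Txnip, whose product binds and inhibits thioredoxin, fell by 1.97 ± 0.27 (adjusted p = 0.000279), and Prdx2, a peroxiredoxin gene, fell by 0.67 ± 0.17 (adjusted p = 0.00886). Txnip was 465.6 to 1894.2 on fresh and 152.8 to 546 on cultured arrays, so the states overlapped only at fresh CD8+ experiment 1 and cultured CD4+ experiment 2.

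Glutathione genes moved both ways, with 3 of 11 higher and 5 lower (median 0.01). Those that rose were Gpx1 and Gpx2, which encode glutathione peroxidases, and Gss, the second enzyme of glutathione synthesis (limma, adjusted p = 0.00429, 0.0415 and 0.0408). Gpx1 rose by 1.08 ± 0.23, while Gpx2 and Gss were above background on 3 and 2 of 6 fresh arrays, and Gss was at least 2.06-fold higher in CD4+ cells. Glo1 of the glyoxalase pathway was at least 1.49-fold lower (adjusted p = 0.00232). All 6 cultured arrays were below background, so it passed the filter only through the fresh cells. Hagh of the same pathway (adjusted p = 0.000984 in the mean) was above background on 2 of 6 cultured arrays, with bounds of at least 1.34-fold lower in CD4+ and 1.31-fold lower in DN cells. Ggct and Ggt5, which act in the breakdown of glutathione, fell as well (adjusted p = 0.00567 and 0.0104), but were above background on 2 and 1 of 6 cultured arrays, and no size is given. Like Glo1, Ggt5 passed the filter only through the fresh cells, so the p-values of both are a description only. Gstp1 is the fifth that fell.

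Among 9 genes for superoxide and peroxide, 0 rose and 2 fell, with a median of 0.09. They were Cat, which encodes catalase (fell by 1.27 ± 0.23, limma, adjusted p = 0.00152), and Rac2, a GTPase of the phagocyte oxidase (fell by 0.99 ± 0.18, adjusted p = 0.00182). Of 8 genes for haem and iron, 4 rose and 0 fell (median 0.61). Fth1, the ferritin heavy chain gene, rose by 1.28 ± 0.14 (adjusted p = 5.78e-05) from 4126 ± 539 to 10201 ± 2635 (SD, n = 6 arrays each). The metallothionein genes rose, Mt1 by 1.40 ± 0.27 (adjusted p = 0.00236), and Mt2 by at least 2.96-fold in DN cells (adjusted p = 0.000551 in the mean), with 2 of 6 fresh arrays above background. Alas1, the first enzyme of haem synthesis, rose by 0.63 ± 0.20 (adjusted p = 0.0279).

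Of 11 partners of p62 in autophagy, 2 rose and 2 fell (median 0.21, or 0.04 with values below background set to that level). Gabarapl1, a ubiquitin-like protein gene of the autophagosome, rose by 2.18 ± 0.21 (limma, adjusted p = 2.94e-05) and Traf6, a ubiquitin ligase that binds p62, by 1.37 ± 0.22 (adjusted p = 0.000732). Gabarapl2 and Atg12 of the same conjugation systems fell by 0.90 and 0.97 (adjusted p = 0.000870 and 0.0152). Of 11 ATF4 targets, which share Slc7a11 with NRF2, 3 rose and 2 fell (median -0.24, or 0.05 at that floor, so its sign depends on it). Slc3a2, the partner chain of that transporter, rose by 1.40 ± 0.15 (adjusted p = 4.75e-05) and Asns, asparagine synthetase, by 0.90 ± 0.30 (adjusted p = 0.0358). Atf3, a stress transcription factor gene, fell by 1.13 ± 0.20 (adjusted p = 0.00153) and Psat1 of serine synthesis fell by 1.03 ± 0.33 (adjusted p = 0.0299).

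**Figure D5:**
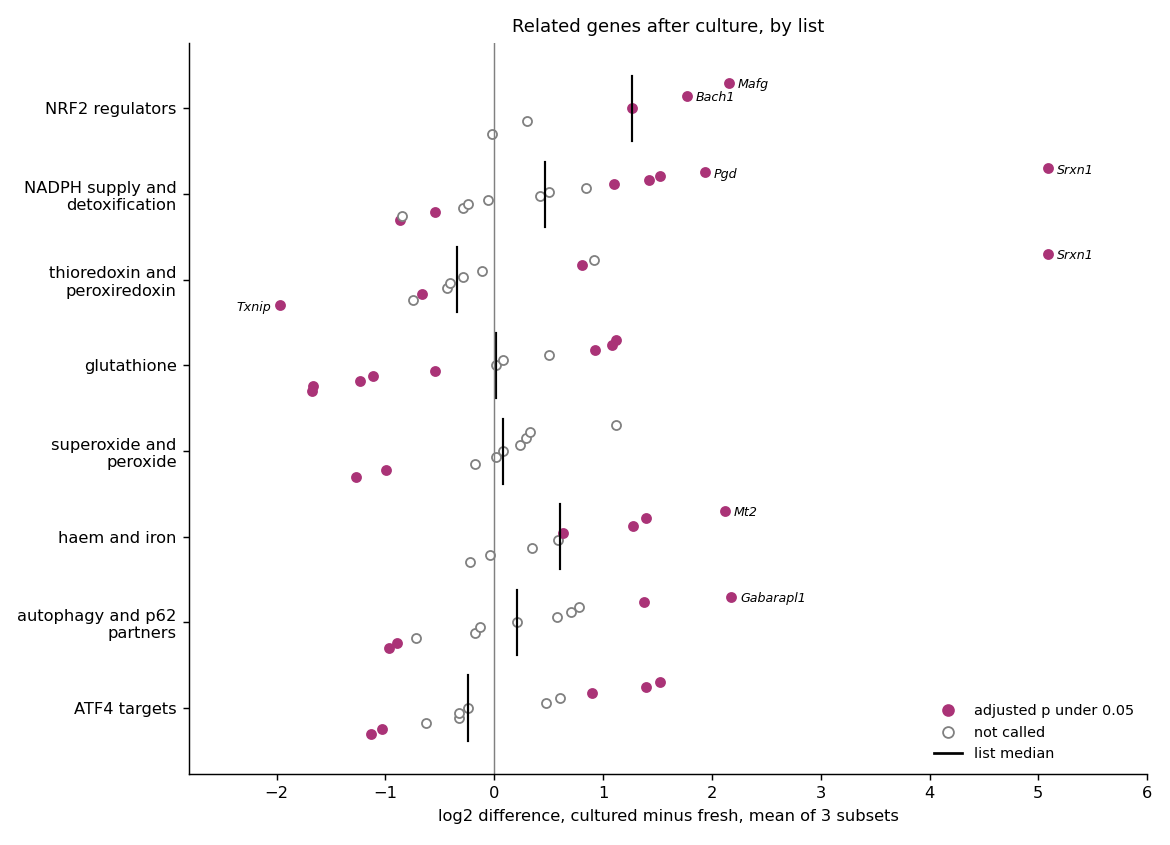
Log2 difference, cultured minus fresh (mean of the 3 subsets), of the genes tested in 8 related lists; filled points have an adjusted p under 0.05, and black bars are list medians. The bar for NRF2 regulators is at 1.27, Srxn1 is the point farthest to the right in both lists that hold it, at a place set by the offset since its fresh values were below background, and the glutathione list has 3 filled points above and 5 below 0.

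The members did not share a single profile over the 12 arrays. Pearson correlations between pairs of them on the log2 scale ran from 0.597 (Txnrd1 with Gclc) to 0.980 (Sqstm1 with Txnrd1). These values carry no p, since the 12 points share 2 states, a gene that differs between states correlates with any other that does, and some Gclc and Gclm values were below background. Among 4734 other genes, Odc1 (0.993), which encodes the first enzyme of polyamine synthesis, Procr (0.991) and Cdkn1a (0.988) were most like Sqstm1. Procr (0.977) and Srxn1 (0.972) were most like Nfe2l2, and Fyn (0.987) and Map2k3 (0.985) most like Txnrd1. Gclc and Txn1, the genes called between fresh subsets, were each most like the other (0.934). Gclm was most like Lgals3 (0.934), Hmox1 like Renbp (0.947) and Gsr like Atp6v1b2 (0.939).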

How the data were processed

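RNA was measured on 12 oligonucleotide arrays. Per the labels, the authors scaled the deposited Average Difference intensities globally; the software is not given in the sources used here. Of 12488 probe sets, 66 controls were left out. Intensities x became log2((x + sqrt(x² + c²)) / 2), with c = 45.69, the typical (median) root mean square of the values below 0 on an array. Such differences understate changes of dim probe sets. Background was set at 2 times c (91.4) on every array, although that root mean square ran from 26.2 to 107.9 between arrays. The 6159 probe sets above background on at least 2 arrays were tested. For a group below it on both arrays, "at least" folds use the higher of that level and the measured value.

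limma 3.58.1 (R 4.3.3; eBayes with trend and robust) fitted 1 mean per group over all 12 arrays with Benjamini-Hochberg adjustment over all tested probe sets, checked on simulated data. A gene with several probe sets was represented in the lists by the one of highest mean. Members and lists were chosen with earlier results of these data known. Named were all members, up to 4 called genes per direction and list, with Gstp1 as the fifth that fell in one, and the nearest profiles. Arrays with the same experiment number deviated from their group means together (15 pairs, r = 0.106 to 0.444), so a replicate block was an alternative. Others varied the offset, floor, filter, normalization, weights and left-out arrays. Sequences came from RefSeq. Python 3.11.15, pandas 2.3.3 and matplotlib 3.10.9 drew the figures.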

Additional observations from a re-analysis of the deposited data

How the results depend on the processing

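No log2 difference of a member that was called reversed under the settings tried. Members called between fresh subsets were 2, and 1 (Txn1) with 0.5 times the offset, a hard floor, quantile normalization, no filter or eBayes without trend, and 1 to 2 with an array left out. Members called between cultured subsets were 1, and 0 with 0.5 times the offset, quantile normalization, no filter, eBayes without trend or without the 3 arrays of high Gapdh ratio (chosen after seeing the data), 2 with array weights (Sqstm1 and Gclc), and 0 to 3 with an array left out. The 3, without cultured CD4+ experiment 2, were Hmox1, Txn1 and Gclc. The culture count in CD4+ cells was 6, and 3 with only the groups compared, and 3 to 7 with an array left out, the 3 without either fresh CD4+ array. In DN cells it was 5, and 2 to 6 with an array left out, 2 without fresh DN experiment 2 and 3 without fresh DN or cultured DN experiment 1. The culture counts are of genes chosen with that comparison known. Fewer arrays leave fewer degrees of freedom; other causes were not tested.

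With the replicate block, the counts were 8 in the mean, 7 in CD4+, 5 in CD8+ and 7 in DN cells after culture, 2 between fresh and 1 between cultured subsets and 0 for differences between subsets. Among all probe sets the block moved the calls from 122 to 192 between fresh CD8+ and CD4+ cells and from 80 to 128 between cultured CD8+ and DN cells. The block ended no call of a member. With 2 arrays per group, signal near background limits Gclc, Gclm and Nqo1 most.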
